A study of Homo sapiens with 9 samples.

Results

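A set of 44 genes of myeloid identity were followed through 9 RNA-seq libraries of U937 cells. U937 is an established human line of monocytic character derived from a histiocytic lymphoma. The genes were listed by name, with earlier results of these data known, and fall into 3 classes: 10 genes of the primary granule, 27 genes of monocyte maturation and 7 lineage transcription factors. They are 44 of the 20265 genes in the count table, and all 44 had a row there. All cells carried Cas9. One group of 3 libraries was labelled WT, one IRF2KO (knockout of IRF2, an interferon regulatory factor) and one IRF2KO_pIRF2 (IRF2KO cells with pIRF2, read here only as the label gives it). The labels give no treatment, no dose and no time, and do not say whether the knockout line is 1 clone or a pool, nor whether replicates came from separate cultures, so the p-values measure only the spread between these libraries, which may be technical.

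Myeloid precursors at the promyelocyte stage fill their primary granules with serine proteases, ribonucleases and antimicrobial proteins, many of them packed onto the proteoglycan serglycin, and most of these genes fall silent as the cells mature. Monocytes instead gain surface receptors such as CD14, integrins, Fc receptors and scavenger receptors. The factors PU.1 (encoded by SPI1) and the C/EBP family drive these programmes, and MYB marks the proliferating precursor. U937 is known as a line arrested early on the path to the monocyte.

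Promoter windows are shown for neighbouring granule genes whose levels are compared below, and for MNDA as one of the 2 members with a match of the interferon response type. The windows come from RefSeq on GRCh38.p14, each 250 bases before the gene's start, printed 5′ to 3′ on the gene's strand, all 6 on the plus strand. Capitals mark matches to the motifs searched. PRTN3 (chr19:840749-840998), AZU1 (chr19:827587-827836) and CFD (chr19:859414-859663) belong to 1 cluster of neighbours on chromosome 19, RNASE2 (chr14:20955237-20955486) and RNASE3 (chr14:20891135-20891384) are similar neighbours on chromosome 14, and MNDA (chr1:158831101-158831350) encodes an interferon-inducible nuclear protein of myeloid cells.
PRTN3: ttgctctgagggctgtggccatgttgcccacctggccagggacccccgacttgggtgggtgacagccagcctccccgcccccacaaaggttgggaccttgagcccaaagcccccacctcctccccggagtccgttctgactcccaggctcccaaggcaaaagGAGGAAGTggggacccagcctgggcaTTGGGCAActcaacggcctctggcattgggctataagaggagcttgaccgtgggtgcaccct
AZU1: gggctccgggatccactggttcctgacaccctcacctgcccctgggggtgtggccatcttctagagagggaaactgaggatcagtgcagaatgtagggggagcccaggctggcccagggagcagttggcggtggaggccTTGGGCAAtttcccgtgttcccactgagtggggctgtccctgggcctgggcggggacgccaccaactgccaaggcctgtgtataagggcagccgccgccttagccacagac
CFD: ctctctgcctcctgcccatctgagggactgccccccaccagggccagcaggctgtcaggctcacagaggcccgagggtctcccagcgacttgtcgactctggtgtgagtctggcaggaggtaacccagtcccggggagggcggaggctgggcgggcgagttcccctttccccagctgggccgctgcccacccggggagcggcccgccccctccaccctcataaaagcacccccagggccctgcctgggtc
RNASE2: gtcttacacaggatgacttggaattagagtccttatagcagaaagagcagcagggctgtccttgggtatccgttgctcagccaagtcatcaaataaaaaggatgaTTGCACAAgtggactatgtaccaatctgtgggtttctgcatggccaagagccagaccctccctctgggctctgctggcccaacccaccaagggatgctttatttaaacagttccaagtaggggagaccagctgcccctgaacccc
RNASE3: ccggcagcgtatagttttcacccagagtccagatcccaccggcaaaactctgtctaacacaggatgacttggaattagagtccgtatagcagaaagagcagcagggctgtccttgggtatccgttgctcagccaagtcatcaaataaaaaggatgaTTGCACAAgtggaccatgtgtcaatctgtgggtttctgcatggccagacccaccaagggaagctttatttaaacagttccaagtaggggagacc
MNDA: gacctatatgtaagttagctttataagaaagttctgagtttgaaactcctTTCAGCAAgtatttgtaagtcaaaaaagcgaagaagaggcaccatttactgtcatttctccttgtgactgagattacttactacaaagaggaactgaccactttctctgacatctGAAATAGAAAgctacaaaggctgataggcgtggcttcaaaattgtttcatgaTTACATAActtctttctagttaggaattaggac

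RefSeq windows of 300 bases, running from 250 before to 50 after the start, matched 31 of the 44 members. The 4 motifs below were searched on both strands, and matches of different motifs or strands may overlap: the interferon response type (GAAA, any 2 bases, GAAA), the composite ETS and IRF type (GGAA, any 2 bases, GAAA), TTNNGNAA of the C/EBP type and GAGGAAGT of the PU.1 type. The interferon response type was present in 2 of the 31 members, MNDA and CD163, against 4.38% of all 27305 genes with a window. The composite type was present in CD36 and CD68, against 3.47% of all genes. The C/EBP type was present in 17 of 31 members, or 54.8%, against 41.8% of all genes, and the PU.1 type in PRTN3 and TYROBP, against 3.15%. PRTN3 and AZU1 hold the same 8 letters of the C/EBP type, beginning at base -62 and base -111 from their starts. RNASE2 and RNASE3 also share 1 match, at base -145 and base -94, within a run of 86 identical bases. MNDA holds its interferon response type letters at base -85, and C/EBP type letters at base -200 and base -33. The CFD window holds none of the 4. These are matches of letters, not measured binding.

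Library totals ran from 14824907 to 23108288 counts, and the 44 members took between 0.947% and 1.40% of them. A floor of 3 counts corresponded to 0.130 to 0.202 CPM, the library-scaled count, and floors cover counting error only. The first principal component of all tested genes held 56.4% of the variance, with WT replicate 1 at one end (-36.1) and IRF2KO replicate 2 at the other (52.3), so results are also given without both. IRF2 itself had 37.1, 39.1 and 44.1 CPM in WT, 23.5, 25.9 and 25.5 in IRF2KO and 15.3, 18.2 and 18.4 in the libraries labelled IRF2KO_pIRF2. The labels do not say where the edit lies, so counts over the whole gene do not check it. On the log2 scale the gene fell by 0.68 ± 0.13 in IRF2KO (edgeR quasi-likelihood, adjusted p = 0.043) and by 1.22 ± 0.13 in the libraries labelled IRF2KO_pIRF2 against WT (edgeR, adjusted p = 0.0029). IRF2 was thus not higher with pIRF2 than without it (-0.53 ± 0.13, edgeR, adjusted p = 0.24), and every direction drawn from that group is one of libraries with that label. Here and below the error of a log2 fold change is its standard error, CPM are scaled with TMM factors, and adjusted p is the Benjamini-Hochberg value over all genes tested, 11517 in the edgeR fit of all 9 libraries, with 0.05 as the threshold. DESeq2 and fits without some libraries adjust over their own tested genes. Whether fewer cells carried a transcript or each cell carried less cannot be told apart in bulk RNA.

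Primary granule transcripts were among the highest of the members, and several receptors of mature monocytes and macrophages were near 0. Levels between genes are compared per length, as TPM (counts per kilobase of exon, scaled to a common total). PRTN3, which encodes proteinase 3, was highest of the members at 5717 ± 1356 (SD over 9 libraries), the 18th gene of the whole table. ELANE (neutrophil elastase) stood at 3062 ± 528, SRGN (serglycin, the proteoglycan core) at 2753 ± 530 and CTSG (cathepsin G) at 1592 ± 236. ELANE and SRGN differed by less than their spread over libraries. RNASE2 and RNASE3, the ribonucleases also known from eosinophil granules, followed at 1215 ± 156 and 726 ± 78.8, and AZU1 (azurocidin, an inactive relative of elastase) and LYZ (lysozyme) lay between them at 846 ± 269 and 788 ± 97.4. AZU1, LYZ and RNASE3 did not differ beyond their spread. CFD, encoding complement factor D, was far below its neighbour ELANE at 39.9 ± 6.91, the ratio of their levels per length running from 64.1 to 97.9 over the 9 libraries.

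MPO, the gene of myeloperoxidase and the best known primary granule marker, was nearly absent. It had 6, 6 and 10 counts in the WT libraries, 7, 5 and 8 in IRF2KO and 3, 4 and 6 in the libraries labelled IRF2KO_pIRF2, 55 in all. Its level per length was 0.216 ± 0.0852, below every other member of its class. Of the other genes checked for monocytic identity, CD33, CD4, CD68, LYZ and SPI1 were all at 32.2 or more per length, while CD14 and CSF1R were at 0.0317 and 0.419. CD14, the lipopolysaccharide co-receptor, had 5 counts in all and was at 0 in the 3 WT libraries. CD163 and VCAN had 2 counts each, and MRC1 and CEBPD had none in any library. CD163 and MRC1 are macrophage scavenger and mannose receptors. S100A8, a calprotectin subunit, had 37 counts in all against 160 for its partner S100A9. These 7 genes (MPO, CD14, VCAN, S100A8, MRC1, CD163 and CEBPD) were too low to be tested in the filtered edgeR fit. That left 37 members there: 9 granule, 22 maturation and 6 factor genes. DESeq2 was fitted to 42 members, all but MRC1 and CEBPD.

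**Figure D1:**
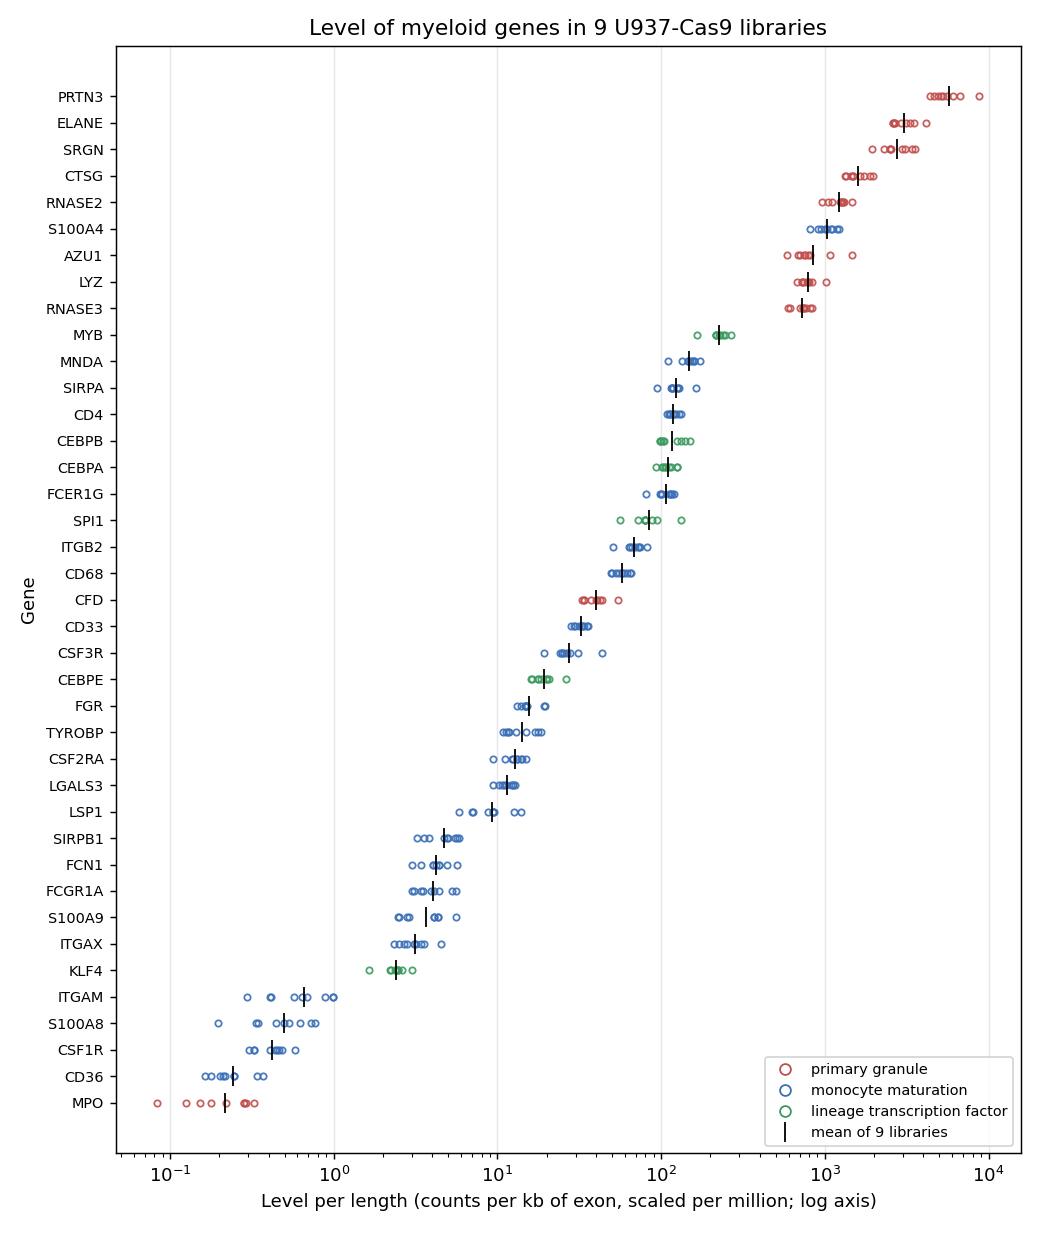
Level per length (horizontal log axis, counts per kilobase of exon, scaled to a common total) of members in each of the 9 libraries, as open circles coloured by class, with the mean as a bar. PRTN3 is highest at 5717 and MPO lowest of those drawn at 0.216. CD14, CD163, VCAN, MRC1 and CEBPD, with 5 counts or fewer in all, are not drawn.

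Among maturation genes the order per length ran from S100A4 (a calcium-binding protein of motile cells) at 1033 ± 134 over MNDA at 148 ± 17.8, SIRPA (the inhibitory receptor for CD47) at 122 ± 18.1, CD4 at 119 ± 8.01 and FCER1G (the common Fc receptor gamma chain) at 106 ± 12.4 to ITGB2 (the beta2 integrin chain) at 68.3 ± 8.72. SIRPA, CD4 and FCER1G did not differ beyond their spread, and 81.7% of the exonic length of CD68 (57.3 ± 5.93) is shared with AC016876.2 on its strand. The alpha chains that pair with ITGB2 were much lower: ITGAX (CD11c) at 3.11 ± 0.661 and ITGAM (CD11b) at 0.654 ± 0.26. Among factors MYB led at 224 ± 27.7, followed by CEBPB at 117 ± 20.2, CEBPA at 110 ± 10.7 and SPI1 at 84.8 ± 20.9. The ranges of CEBPB, CEBPA and SPI1 over libraries overlapped. Within a library SPI1 lay below CEBPA and CEBPB except in IRF2KO replicate 2, where it was at 133. CEBPE, the late granulocytic member, stood at 19.2 ± 3.1 and KLF4, a monocyte factor, at 2.38 ± 0.358.

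In IRF2KO against WT, 2 members rose, SIRPB1 and LSP1, both of the maturation class, and none fell. Across all genes tested 48 of 11517 passed, 0.417%, of which 6 rose (0.0521%). No granule gene (of 9) and no factor (of 6) passed in edgeR, where 2 granule genes and 1 factor had an unadjusted p under 0.05, as did 7 maturation genes and 18.7% of all genes tested. DESeq2 called 3 members, adding LYZ, and no factor, among 114 of the 14948 genes it fitted (47 higher). The median log2 fold change was 0.22 over the granule genes, 0.25 over the maturation genes and 0.15 over the factors, against -0.01 over all genes tested. Without WT replicate 1 and IRF2KO replicate 2, the end libraries of that component, the 3 medians were -0.14, 0.01 and -0.06.

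SIRPB1 encodes an activating receptor of the signal regulatory protein family that signals through the adaptor TYROBP. Its CPM were 9.22, 8.48 and 8.78 in WT, 13.3, 15.9 and 16.1 in IRF2KO and 13.1, 12.7 and 13.9 in the libraries labelled IRF2KO_pIRF2. All 6 knockout-labelled libraries lay above all 3 WT libraries. The rise in IRF2KO was 0.78 ± 0.13 on the log2 scale, or 1.71-fold (edgeR, adjusted p = 0.029). The libraries labelled IRF2KO_pIRF2 differed from WT by 0.58 ± 0.13 (edgeR, adjusted p = 0.33; DESeq2, 0.028) and from IRF2KO by -0.19 ± 0.13 (edgeR, adjusted p = 0.51). The gene (chr20:1563521-1620061, minus strand) shares 13.4% of its exonic length on the same strand with AL049634.2 and has the paralog SIRPA, so reads may be split between them.

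LSP1 encodes a leukocyte-specific actin-binding protein. Its CPM were 12.5, 14.9 and 16.8 in WT, 26.2, 35.7 and 23.1 in IRF2KO and 22.2, 22.6 and 21.5 in the libraries labelled IRF2KO_pIRF2. The 3 groups did not overlap, with WT lowest and IRF2KO highest. The rise in IRF2KO was 0.94 ± 0.17, or 1.92-fold (edgeR, adjusted p = 0.044). The libraries labelled IRF2KO_pIRF2 differed from WT by 0.58 ± 0.17 (edgeR, adjusted p = 0.91) and from IRF2KO by -0.36 ± 0.17 (edgeR, adjusted p = 0.45). LSP1 (chr11:1852970-1892267, plus strand) shares 5.24% of its exonic length with other genes on its strand.

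Without WT replicate 1 and IRF2KO replicate 2 together, 61 of 11563 genes passed in IRF2KO against WT (14 higher), RNASE2 among them. The calls for SIRPB1 and LSP1 hold there (0.77 and 0.63 on the log2 scale, edgeR, adjusted p = 0.021 and 0.026). They are lost in other fits: SIRPB1 without any 1 WT library, without IRF2KO replicate 3 or without any 1 library labelled IRF2KO_pIRF2, and LSP1 without WT replicate 1 or 2, IRF2KO replicate 1 or any 1 library labelled IRF2KO_pIRF2, with adjusted p up to 0.22 and 0.23 in edgeR. The log2 fold change with 1 library left out ran from 0.73 to 0.86 for SIRPB1 and from 0.74 to 1.07 for LSP1. Both calls are also lost in a fit of the 2 groups alone, at 0.78 ± 0.17 and 0.95 ± 0.20 (edgeR, adjusted p = 0.22 and 0.23). The summed CPM of 8 B cell markers also did not overlap WT, at 11.7 to 16.02 in WT, 17.7 to 27.4 in IRF2KO and 17.4 to 18.9 in the libraries labelled IRF2KO_pIRF2. Of these, MS4A1 and BLK were at 0 in every library, while PAX5, CD79A, CD22, VPREB3, FCRLA and CD79B had counts. CD22 had 0.875, 0.457 and 0.976 CPM in WT, 1.30, 1.57 and 1.13 in IRF2KO and 2.28, 2.48 and 2.29 in the libraries labelled IRF2KO_pIRF2. CD22 in the last group differed by 1.57 ± 0.26 from WT and 0.81 ± 0.24 from IRF2KO (edgeR, adjusted p = 0.065 and 0.43). The other tested markers, PAX5, CD79A and VPREB3, were lower there than in IRF2KO, by -0.281, -0.525 and -0.868 (edgeR, adjusted p = 0.457, 0.482 and 0.443). PAX5 and CD79A were the largest parts of the sum, and both overlapped WT in the last group. PAX5 ran from 6.85 to 8.29 CPM in WT and from 7.88 to 9.71 there, and CD79A from 3.55 to 7.81 and from 5.24 to 6.69. The share of counts on mitochondrial genes was 12.7% to 17.1% in WT, 12.2% to 18.8% in IRF2KO and 17.3% to 18.01% in the libraries labelled IRF2KO_pIRF2. With that share as a term in the fit, SIRPB1 rose by 0.71 ± 0.14 and LSP1 by 0.85 ± 0.17 (edgeR, adjusted p = 0.046 and 0.047). The part of the B cell markers was not tested.

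**Figure D2:**
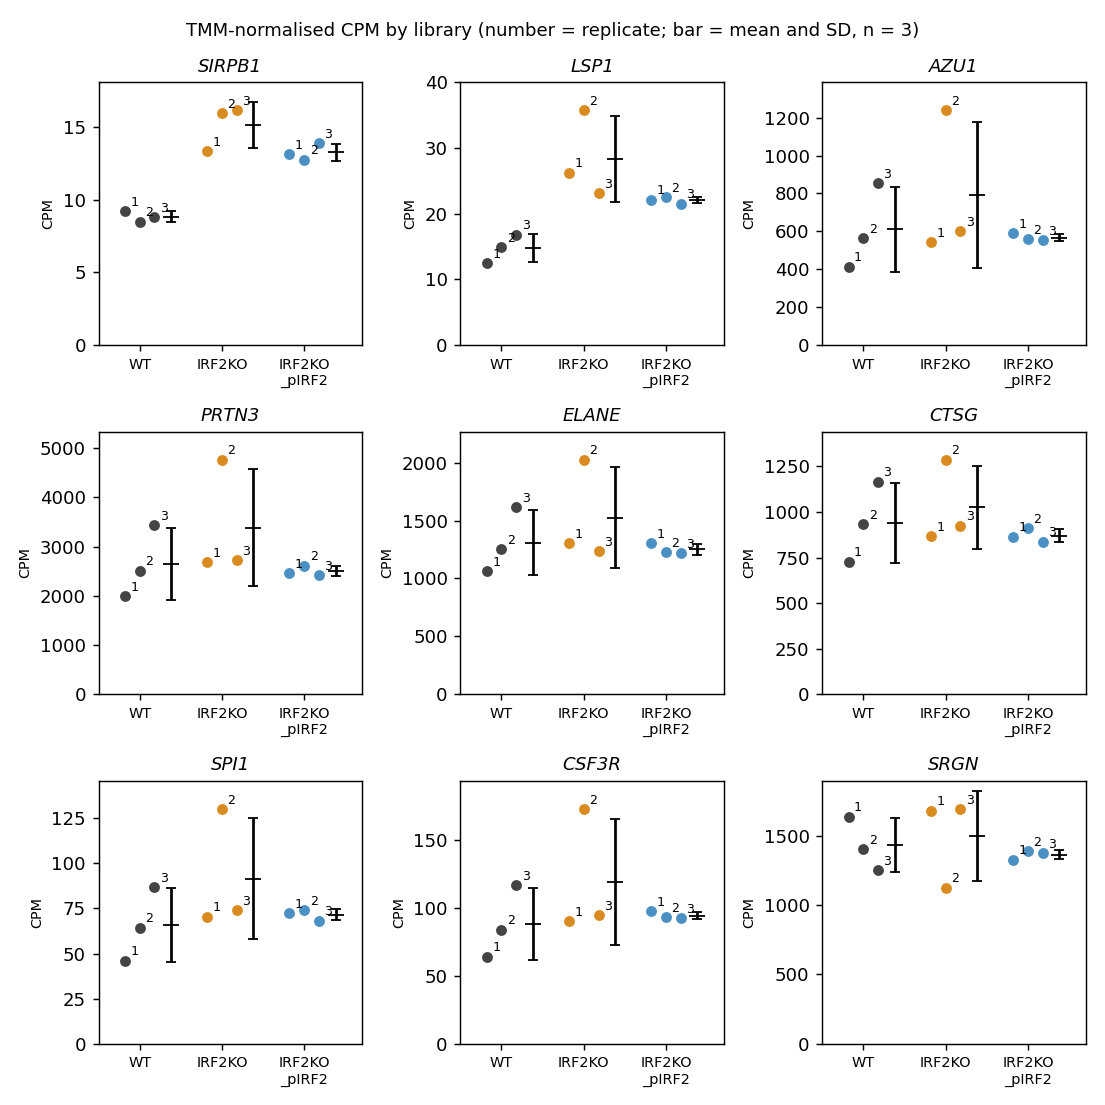
CPM of 9 members (vertical axes from 0) in each library, the number beside a point giving the replicate and the bars the mean and SD of 3 libraries. SIRPB1 and LSP1 lie higher in every IRF2KO library than in every WT library, while AZU1, PRTN3, ELANE, CTSG, SPI1 and CSF3R are highest in IRF2KO replicate 2 and lowest in WT replicate 1, and SRGN is lowest in IRF2KO replicate 2. AZU1, SPI1 and CSF3R were chosen after their values were seen.

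Of the 37 tested members, 8 lay higher in every IRF2KO library than in every WT library (LYZ, ITGAX, TYROBP, S100A9, SIRPB1, LSP1, FGR and CEBPA) and CSF2RA lay lower, 24.3% together, against 17.2% of all genes tested (8.97% higher and 8.23% lower). LYZ had 562, 540 and 535 CPM in WT, 690, 645 and 670 in IRF2KO and 560, 588 and 580 in the libraries labelled IRF2KO_pIRF2. Every IRF2KO library lay above every other one. The difference from WT was 0.29 ± 0.09 (edgeR, adjusted p = 0.26; DESeq2, 0.042), and 34.0% of its exonic length lies opposite AC020656.1. CSF2RA, the GM-CSF receptor alpha chain, had 21.4, 22.2 and 22.6 CPM in WT, 18.4, 17.1 and 19.3 in IRF2KO and 21.9, 23.9 and 21.2 in the libraries labelled IRF2KO_pIRF2. IRF2KO was lowest, by -0.27 ± 0.12 against WT (edgeR, adjusted p = 0.27); the gene is pseudoautosomal, so its reads can match a copy on each sex chromosome. The adaptor TYROBP, through which SIRPB1 signals, had 4.17, 3.85 and 4.57 CPM in WT, 5.95, 7.89 and 5.35 in IRF2KO and 7.001, 4.76 and 6.20 in the libraries labelled IRF2KO_pIRF2. ITGAX had 6.59, 7.37 and 7.86 in WT, 8.61, 15.03 and 8.90 in IRF2KO and 11.04, 9.82 and 10.9 in the third group. For both genes each of the 6 knockout-labelled libraries lay above every WT library. Differences of TYROBP (0.61 ± 0.20), S100A9 (0.84 ± 0.29), ITGAX (0.58 ± 0.21) and FGR, a Src family kinase (0.37 ± 0.14), each had an adjusted p of 0.26 in edgeR.

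The protease genes varied more between libraries within WT and within IRF2KO than between group means. PRTN3 had 1996, 2507 and 3430 CPM in WT, 2678, 4762 and 2717 in IRF2KO and 2461, 2612 and 2421 in the libraries labelled IRF2KO_pIRF2. ELANE had 1065, 1252 and 1615 in WT, 1306, 2025 and 1238 in IRF2KO and 1307, 1226 and 1219 in the third group. Both were highest in IRF2KO replicate 2, then WT replicate 3, and lowest in WT replicate 1. AZU1 gave 414, 565 and 854 CPM in WT, 542, 1238 and 602 in IRF2KO and 589, 559 and 552 in the libraries labelled IRF2KO_pIRF2. CTSG gave 726, 931 and 1166 in WT, 866, 1286 and 925 in IRF2KO and 864, 909 and 838 in the third group. Groups overlapped for all 4 between IRF2KO and WT, and the differences were 0.36 ± 0.23 for PRTN3, 0.22 ± 0.19 for ELANE, 0.38 ± 0.30 for AZU1 and 0.12 ± 0.18 for CTSG (edgeR, adjusted p from 0.34 to 0.65). Without the 2 end libraries these differences took the other sign, at -0.14, -0.17, -0.31 and -0.23.

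SRGN, whose product packs these proteases, had another order of libraries. It had 1641, 1404 and 1253 CPM in WT, 1684, 1127 and 1696 in IRF2KO and 1330, 1390 and 1377 in the libraries labelled IRF2KO_pIRF2. IRF2KO replicate 2, the highest library for the proteases, was the lowest for SRGN, and its IRF2KO difference from WT was 0.07 ± 0.16 (edgeR, adjusted p = 0.78). RNASE2 and RNASE3 had their own order, RNASE2 lowest in WT replicate 2 and RNASE3 in WT replicate 3. Their ratio per length was 1.593, 1.558 and 1.571 in WT and 1.78, 1.753 and 1.745 in IRF2KO. In the libraries labelled IRF2KO_pIRF2 it was 1.727, 1.669 and 1.656. The 3 groups did not overlap in this ratio, with WT lowest and IRF2KO highest, and the difference was not tested. RNASE2 had 386, 323 and 324 CPM in WT, 430, 374 and 446 in IRF2KO and 419, 415 and 433 in the libraries labelled IRF2KO_pIRF2. WT replicate 1 overlapped IRF2KO, and the last group lay above WT. RNASE2 in IRF2KO differed from WT by 0.27 ± 0.11 (edgeR, adjusted p = 0.26). The 2 are close paralogs, so reads may be divided between them.

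The spread within groups was narrow in the libraries labelled IRF2KO_pIRF2. PRTN3's highest over lowest library was 1.72 in WT, 1.78 in IRF2KO and 1.08 in that group, and AZU1's was 2.06, 2.29 and 1.07. Medians over the 9 tested granule genes were 1.52, 1.49 and 1.07, and over all genes tested 1.32, 1.40 and 1.13. A set of 14 members of 37, or 37.8%, were highest in IRF2KO replicate 2 and lowest in WT replicate 1 (ELANE, PRTN3, AZU1, CTSG, CSF3R, CD4, ITGAX, ITGB2, FCN1, SIRPA, LSP1, FGR, SPI1 and CEBPE), against 23.5% of all genes tested. The opposite pattern, highest in WT replicate 1 and lowest in IRF2KO replicate 2, held for 0 members and 26.2% of all genes tested. The map of relative levels shows this column of high values across all 3 classes. AZU1, PRTN3, ELANE and CFD lie in that order on chromosome 19 with gaps of 8942, 2839 and 3396 bases, but CFD, with 17.97, 20.9 and 29.9 CPM in WT and 18.8, 24.6 and 18.1 in IRF2KO, was highest in WT replicate 3.

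**Figure D3:**
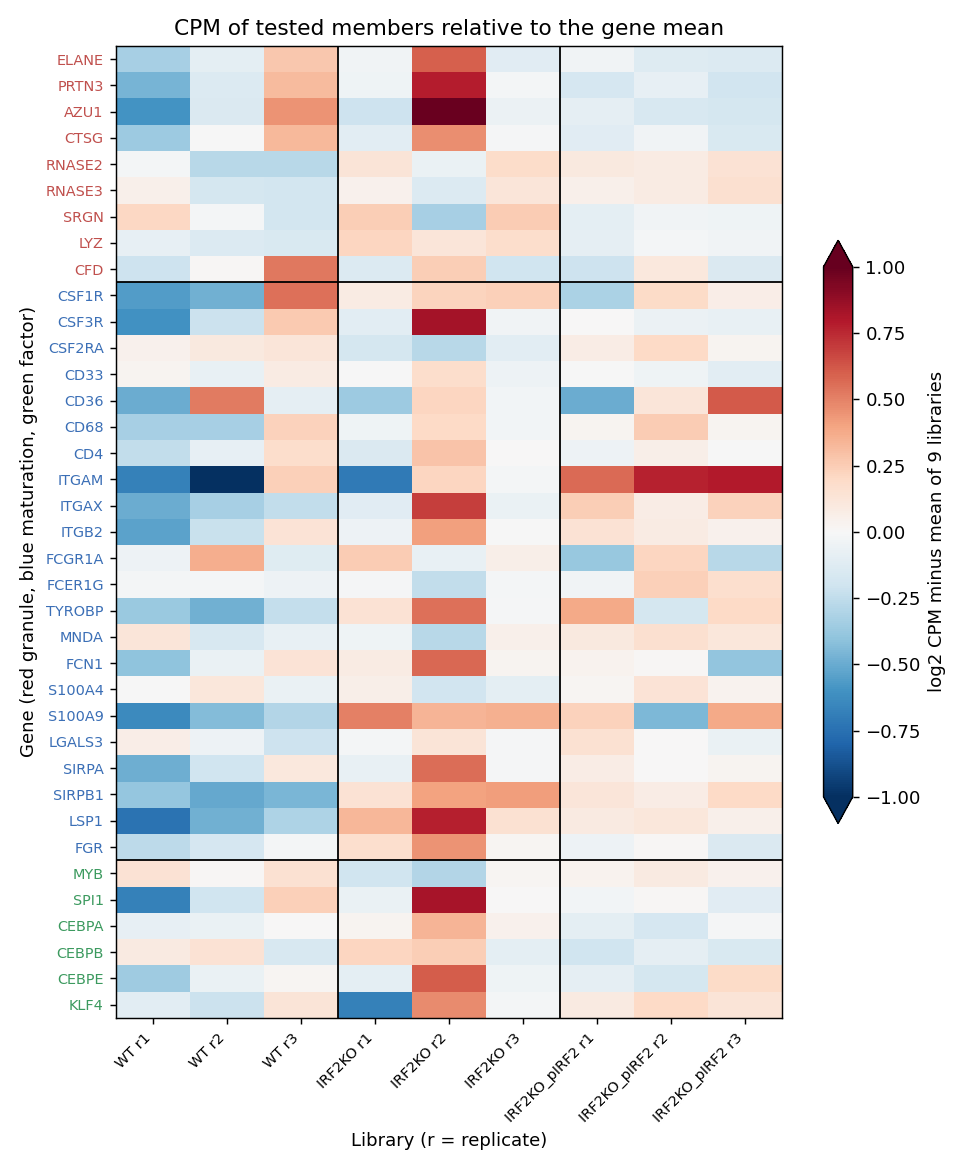
Log2 CPM minus the mean of the 9 libraries (colour, from -1 to 1) for the 37 tested members in rows, ordered by class, and the 9 libraries in columns. ELANE, PRTN3, AZU1, CTSG, CSF3R and SPI1 are highest in IRF2KO replicate 2 and lowest in WT replicate 1, while SRGN, CSF2RA, MNDA and MYB are lowest in IRF2KO replicate 2.

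None of the 6 highest maturation genes passed the test in any comparison. S100A4 had 452, 489 and 431 CPM in WT, 472, 396 and 422 in IRF2KO and 458, 497 and 464 in the libraries labelled IRF2KO_pIRF2. MNDA had 142, 117 and 124 in WT, 127, 108 and 135 in IRF2KO and 139, 146 and 141 in the third group. Both overlapped between IRF2KO and WT, with differences of -0.09 ± 0.10 and -0.05 ± 0.12. CD4 had 197, 221 and 264 CPM in WT, 211, 286 and 235 in IRF2KO and 226, 243 and 233 in the libraries labelled IRF2KO_pIRF2. SIRPA had 189, 231 and 285 in WT, 252, 389 and 263 in IRF2KO and 279, 265 and 270 in the third group. ITGB2 had 137, 170 and 218 in WT, 191, 264 and 198 in IRF2KO and 219, 210 and 204 in the third group. WT replicate 1 was the lowest library for these 3 and IRF2KO replicate 2 the highest, and IRF2KO overlapped WT. FCER1G had 43.2, 43.3 and 42.4 CPM in WT, 43.4, 36.9 and 43.2 in IRF2KO and 42.7, 51.8 and 49.1 in the libraries labelled IRF2KO_pIRF2, overlapping throughout.

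The following maturation genes did not pass the test in any comparison, and some rested on few counts. CD33, a sialic acid receptor of early myeloid cells, ran from 76.6 to 93.2 CPM over the 9 libraries, and LGALS3, encoding galectin-3, from 10.1 to 13.0. FCN1, the ficolin of monocytes, ran from 6.75 in WT replicate 1 to 13.3 in IRF2KO replicate 2. FCGR1A, the high-affinity IgG receptor with near-identical copies, ran from 3.91 to 6.53 CPM. CSF1R, the receptor for the monocyte growth factor CSF1, ran from 0.618 to 1.33 CPM on 10 to 26 counts, and CD36, a scavenger receptor, from 0.772 to 1.67 CPM on 15 to 35 counts. All of these overlapped between all groups.

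Of the factors, SPI1 had 46.1, 64.2 and 86.9 CPM in WT, 70.5, 130 and 74.0 in IRF2KO and 72.3, 74.1 and 68.2 in the libraries labelled IRF2KO_pIRF2. CSF3R, the G-CSF receptor gene of the maturation class, had 64.2, 84.0 and 117 in WT, 90.6, 173 and 94.9 in IRF2KO and 97.6, 93.4 and 92.7 in the third group. Both were highest in IRF2KO replicate 2 and lowest in WT replicate 1, as the proteases were. Their IRF2KO differences from WT were 0.48 ± 0.25 and 0.44 ± 0.25 (edgeR, adjusted p = 0.28 and 0.31), and -0.07 and -0.12 without the 2 end libraries. MYB had 582, 530 and 585 CPM in WT, 459, 431 and 535 in IRF2KO and 538, 561 and 543 in the libraries labelled IRF2KO_pIRF2, a difference of -0.25 ± 0.11 in IRF2KO against WT (edgeR, adjusted p = 0.26). CEBPA had 117, 118 and 124 in WT, 126, 156 and 127 in IRF2KO and 116, 110 and 123 in the third group, and 43.4% of its exonic length lies opposite other genes. CEBPB had 103, 107 and 86.9 in WT, 113, 115 and 90.8 in IRF2KO and 84.5, 90.9 and 87.4 in the third group. CEBPA in IRF2KO lay above every other library and CEBPB overlapped, with differences from WT of 0.19 ± 0.11 and 0.10 ± 0.12.

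In the libraries labelled IRF2KO_pIRF2 no member passed against IRF2KO, among 42 genes of all tested (0.365%). In edgeR 4 members had an unadjusted p under 0.05, against 11.2% of all genes tested. DESeq2 called 0 members, among 64 of the 14948 genes it fitted. Without overlap, 4 members lay higher (CSF2RA, ITGAM, MNDA and MYB) and 5 lower (PRTN3, LYZ, LSP1, FGR and CEBPA), 24.3% of 37, against 22.6% of all genes tested (11.1% higher and 11.5% lower). The median was -0.14, and 0.01 without the 2 end libraries. ITGAM had 0.927, 0.653 and 1.75 CPM in WT, 0.907, 1.72 and 1.47 in IRF2KO and 2.19, 2.53 and 2.57 in the libraries labelled IRF2KO_pIRF2, where every library exceeded every other one. These rest on 10 to 54 counts per library. Its difference was 0.82 ± 0.32 against IRF2KO and 1.10 ± 0.32 against WT (edgeR, adjusted p = 0.44 and 0.91).

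Against WT, the libraries labelled IRF2KO_pIRF2 had no member past the test, among 9 genes of all tested (0.0781%, with 0.0347% higher). In edgeR 6 members had an unadjusted p under 0.05, against 3.92% of all genes tested (1.84% higher). DESeq2 called SIRPB1 alone of the members, among 37 of the 14948 genes it fitted (18 higher). Without overlap, 7 lay higher (RNASE2, RNASE3, ITGAM, ITGAX, TYROBP, SIRPB1 and LSP1), 18.9% of 37, and none lower, against 11.6% of all genes tested (5.81% higher and 5.75% lower). This comparison shares its WT libraries with that of IRF2KO, and the plot of fold changes sets the values of the 2 side by side.

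**Figure D4:**
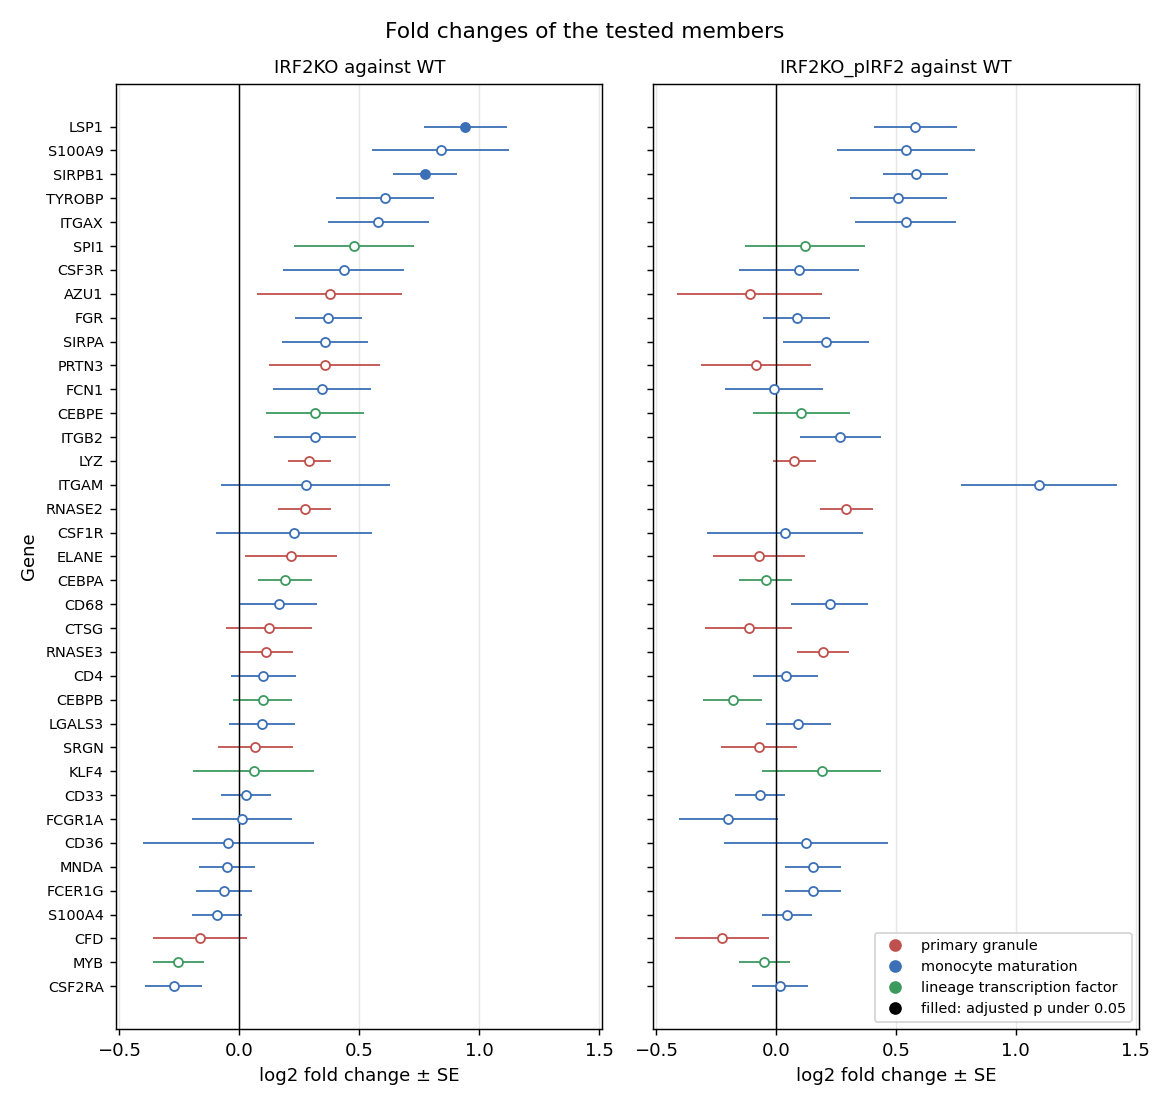
Log2 fold change with its standard error (edgeR) of the 37 tested members in IRF2KO against WT (left) and the libraries labelled IRF2KO_pIRF2 against WT (right), in the same gene order, filled where the adjusted p is under 0.05. SIRPB1 and LSP1 are filled on the left at 0.78 and 0.94 and no gene is filled on the right. Both panels use the same WT libraries.

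Related genes outside the members were counted from 3 further lists. Of 26 other granule and lysosome genes 21 were tested, of 54 other maturation genes 42 and of 38 other lineage factors 33. None passed in IRF2KO against WT, where 5, 9 and 4 had an unadjusted p under 0.05 in edgeR, against 18.7% of all genes tested. DESeq2 called CTSD, CD300C and LILRA2 there, among 114 of the 14948 genes it fitted. The medians of the 3 lists were -0.03, 0.10 and -0.07. FCGR2B, the inhibitory Fc receptor, was the only gene of these lists past the edgeR test in any comparison. It rested on 25 to 98 counts per library. Its CPM were 1.60, 2.09 and 1.44 in WT, 1.47, 1.92 and 1.41 in IRF2KO and 4.21, 3.62 and 4.48 in the libraries labelled IRF2KO_pIRF2. The last group lay above every other library, by 1.35 ± 0.21 against IRF2KO (edgeR, adjusted p = 0.014) and 1.28 ± 0.21 against WT (edgeR, adjusted p = 0.065). Against IRF2KO its call is lost without IRF2KO replicate 1 or 3, or without IRF2KO_pIRF2 replicate 1 or 3 (log2 1.27 to 1.33, edgeR, adjusted p = 0.084 to 0.11). Against WT it passes in DESeq2 (adjusted p = 0.0013), with no filter (edgeR, 0.032), with the 2 groups alone (0.041), without IRF2KO replicate 2 (0.014) and without both end libraries (0.027).

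Markers of other cells were low apart from NKG7. The B cell list given above summed to more than the lists below without NKG7, at 11.7 to 27.4 CPM over the 9 libraries. The list of 13 T and NK cell markers, with NKG7 left out (a granule membrane gene also counted in the other granule list), summed to 1.24 to 2.003 CPM in WT, 1.92 to 2.89 in IRF2KO and 2.19 to 2.48 in the libraries labelled IRF2KO_pIRF2, the last above WT throughout, with CD3D, CD7, CD8A and CD28 at 0 in every library. NKG7 itself lay at 289 to 452 CPM. The 13 erythroid and megakaryocyte markers summed to 3.60 to 4.57 CPM in WT, 4.65 to 6.83 in IRF2KO and 4.34 to 4.60 in the libraries labelled IRF2KO_pIRF2, with HBA1, HBA2 and HBB at 0. KLF1, an erythroid transcription factor, made up most of that sum, at 3.30, 3.52 and 4.21 CPM in WT, 4.36, 6.53 and 5.13 in IRF2KO and 4.25, 3.97 and 4.15 in the third group. The 10 epithelial and fibroblast markers summed to 0.261 to 1.08 CPM in WT, 0.680 to 1.32 in IRF2KO and 2.14 to 2.63 in the libraries labelled IRF2KO_pIRF2, with 6 of them at 0 in every library. COL1A1 alone, a collagen chain, gave 0.566, 0.131 and 0.924 CPM in WT, 0.623, 0.962 and 0.676 in IRF2KO and 2.11, 2.48 and 1.86 in the third group. The higher sums of the third group for this list and of IRF2KO for the erythroid list were thus mostly those of 1 gene each. The part of these markers in the members' results was not tested.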

How the data were processed

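RNA was extracted with a Macherey Nagel kit and made into libraries with the Lexogen SENSE mRNA-Seq kit V2, per the labels' protocols. The deposited table holds raw counts per gene for each of the 9 libraries. The submitters' processing notes name Bowtie2 2.3.3, TopHat2 2.1.1, SAMtools, bedtools, HTSeq 0.9.1 and hg38, without their roles, and do not say whether strand was used in counting. Gene IDs were named through GENCODE 29 on GRCh38 (20030 of 20265 matched, and unmatched IDs held 0.0123% of counts). Counts were filtered (filterByExpr), scaled with TMM factors and fitted in edgeR 4.0.16 (R 4.3.3, quasi-likelihood) over all 9 libraries at once, without covariates, with Benjamini-Hochberg adjustment over 11517 genes. DESeq2 1.42.0 was an alternative. Library depth ran from 14824907 to 23108288 counts, which sets the CPM that the fixed floor of 3 counts stands for. Libraries of 1 group differed by more than sampling noise in every pair. Replicate numbers did not pair the libraries. The members and lists were chosen with earlier results of these data known. Named genes are members past the test, the highest per length in each class, those with the smallest p in each comparison, and those at 0 in a group, plus IRF2. AZU1, SPI1 and CSF3R were added after their values were seen. Library values of RNASE2, TYROBP, ITGAX, CFD, CD22, KLF1 and COL1A1 are also given outside this rule, with their values known. The same holds for the ranges or fold changes of PAX5, CD79A and VPREB3. Promoters are from RefSeq (GRCh38.p14), searched for 4 motifs. The sum of 8 B cell markers leaves out 1 further marker of that list, which is not reported here.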

Additional observations from a re-analysis of the deposited data

How the results depend on the processing

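Under 16 other settings 936 fold changes of named members kept direction and call, 17 lost a call, 2 gained one and 53 took the other sign, none of these called. RLE size factors changed no call. The replicate block, whose numbers did not pair the libraries (same-number correlations from -0.43 to 0.61), called 39, 36 and 7 genes in IRF2KO against WT, IRF2KO_pIRF2 against IRF2KO and IRF2KO_pIRF2 against WT, and 0 members in the first, with SIRPB1 at 0.77 and LSP1 at 0.93 (edgeR, adjusted p = 0.091 and 0.064). DESeq2 called 114, 64 and 37 genes, and 1 member in IRF2KO_pIRF2 against WT. Fitting the 2 groups alone called 31 genes and 0 members in IRF2KO against WT, and 16 genes in IRF2KO_pIRF2 against WT, which had 18 with no filter and 27 without both end libraries. Leaving out 1 library gave 34 to 49, 26 to 47 and 3 to 25 genes and, in IRF2KO against WT, 0 to 2 members (the value 26 came without IRF2KO_pIRF2 replicate 2, 3 without WT replicate 2 and 25 without IRF2KO replicate 2). The cause of these moves was not tested.

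In IRF2KO against WT, without both end libraries, the sign changed for PRTN3 -0.138, ELANE -0.173, CTSG -0.229, MNDA 0.12, SIRPA -0.004, CD4 -0.121, FCER1G 0.015, ITGAM -0.077, AZU1 -0.312, SPI1 -0.067 and CSF3R -0.118. In IRF2KO against WT, with the mitochondrial share as a term, the sign changed for CTSG -0.032, CD4 -0.024 and ITGAM -0.106. Leaving out 1 library gave log2 values of -0.044 to 0.392 for ELANE, -0.029 to 0.238 for SRGN, -0.072 to 0.305 for CTSG, -0.124 to 0.038 for MNDA, -0.028 to 0.218 for CD4, -0.104 to 0.011 for FCER1G and -0.096 to 0.696 for AZU1 in IRF2KO against WT. In IRF2KO_pIRF2 against IRF2KO, without both end libraries, the sign changed for SIRPA 0.077, CD4 0.07, ITGB2 0.116 and CSF3R 0.028. Leaving out 1 library gave log2 values of -0.263 to 0.077 for SIRPA, -0.153 to 0.069 for CD4, -0.131 to 0.115 for ITGB2 and -0.503 to 0.028 for CSF3R in IRF2KO_pIRF2 against IRF2KO. In IRF2KO_pIRF2 against WT, without both end libraries, the sign changed for SRGN 0.039, CD4 -0.052, CSF2RA -0.005, SPI1 -0.082 and CSF3R -0.089. In IRF2KO_pIRF2 against WT, with the mitochondrial share as a term, the sign changed for SRGN 0.116, SIRPA -0.031, CD4 -0.147, SPI1 -0.213 and CSF3R -0.25. Leaving out 1 library gave log2 values of -0.25 to 0.149 for PRTN3, -0.198 to 0.109 for ELANE, -0.158 to 0.039 for SRGN, -0.27 to 0.07 for CTSG, -0.052 to 0.16 for CD4, -0.033 to 0.054 for CSF2RA, -0.325 to 0.211 for AZU1, -0.081 to 0.375 for SPI1 and -0.089 to 0.351 for CSF3R in IRF2KO_pIRF2 against WT. The causes were not tested.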
